A study of Mus musculus with 15 samples.

Results

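Acetylcholine receptor genes were followed in dopamine neurons of the ventral midbrain, as a set of 10 genes chosen by symbol: 8 subunits of nicotinic receptors (Chrna3, Chrna4, Chrna5, Chrna6, Chrna7, Chrnb2, Chrnb3 and Chrnb4) and 2 muscarinic receptors (Chrm2 and Chrm3). All 10 were among the 21566 genes measured at embryonic day 14 (E14), and 8 were among the 10781 genes of the time series. Chrna5 and Chrnb4 were not analysed here over time. Cells of the ventral midbrain were purified by fluorescence-activated sorting from Pitx3-GFP mice. Their reporter, green fluorescent protein (GFP), marks cells that use Pitx3, a transcription factor gene of midbrain dopamine neurons. GFP+ cells were compared with GFP- cells of the same genotype at E14 (3 libraries each), and a time series followed GFP+ cells from E14 over embryonic day 16 (E16) to birth (P0), again with 3 libraries per age. All groups thus carried the reporter. Whether 1 or both Pitx3 copies carried the reporter was not given in the sources used here. The submitters report that 3 litters were used, but do not tie a library to a litter. The p-values therefore measure the spread between these libraries, part of which may be technical.

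Acetylcholine acts through receptors of unlike design. Nicotinic receptors are cation channels built from 5 subunits around a pore, and muscarinic receptors are single proteins that signal through G proteins. In the adult midbrain, cholinergic axons from the hindbrain reach dopamine neurons, and nicotinic receptors on dopamine axons in the striatum control dopamine release. The alpha4 and beta2 subunits (Chrna4, Chrnb2) form the widespread receptor with high affinity for nicotine. The alpha6 and beta3 subunits (Chrna6, Chrnb3) join beta2, and often alpha4, in receptors typical of catecholamine neurons and the visual pathway.

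Depth was 17369191 to 22374153 gene reads per library in the sorted E14 cells and 17910017 to 33386535 in the time series, recovered from the spacing of the deposited values. Levels are given as normalized reads, that is reads of a gene divided by 1 scaling factor per library. The 12 dopamine neuron markers were all higher in GFP+ cells, with a summed level of 97910 to 110295 normalized reads per library, against 7385 to 9121 in GFP- cells. The submitters list dopamine neurons as the cell type of the GFP- libraries too, but Th, the enzyme that starts dopamine synthesis from tyrosine, stood in them at 1.05% of its GFP+ level, and they are called GFP- cells here. Markers of other cells were mostly lower in GFP+ cells: 0 of 7 markers of cholinergic motor neurons were higher and 4 lower, and all 6 markers of microglia and all 10 of radial glia and dividing progenitors were lower. Of 9 markers of GABA neurons, 2 were higher (Slc32a1 and Gad2) and 7 lower, and of 5 astrocyte markers 1 was higher (Slc1a2, by 0.55 on the log2 scale) and 2 lower. None was called higher among the markers of glutamate neurons (5 of 5 lower), serotonin neurons (4 of 5), the habenula, red nucleus and interpeduncular nucleus (5 of 6), oligodendrocytes (5 of 6), blood vessels (5 of 6) or erythroid cells (6 of 6).

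Nicotinic genes of the alpha6 and beta3 kind set the GFP+ cells apart at E14. Chrna6 had 8735, 8925 and 8627 normalized reads in the GFP+ libraries, against 24.8, 50.8 and 29.7 in the GFP- libraries. The lowest GFP+ library lay far above the highest GFP- library. The mean was 8763 ± 151 in GFP+ cells and 35.1 ± 13.8 in GFP- cells (SD, n = 3 each), a log2 fold change of 7.99 (SE 0.20, limma adjusted p = 5.72e-10), or 254-fold on the scale of log2(normalized reads + 1). Chrnb3 had 375, 500 and 417 normalized reads in GFP+ cells, against 5.38, 7 and 4.37 in GFP- cells. These groups did not overlap either, and the difference was 6.04 on the log2 scale (SE 0.23, limma adjusted p = 7.76e-09). With a pseudocount of 10 in place of 1 it was 4.81, because the GFP- values are low. Since bulk RNA was measured, more cells with the transcript and more transcript per cell cannot be told apart, here or below.

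Chrna6 stood in GFP- cells at 0.4% of its GFP+ mean and Chrnb3 at 1.3%. Slc6a3, the dopamine transporter, stood at 0.435%, Aldh1a1, which oxidises retinal and dopamine aldehydes, at 0.43%, and Pitx3 at 0.669%. Other dopamine neuron markers kept more of their level in GFP- cells, such as Ddc, the enzyme after Th, at 3.86%, Slc18a2, the vesicular transporter, at 4.73%, and the transcription factors Nr4a2 and Foxa2 at 16.5% and 27.2%. Whether the remaining reads came from dopamine neurons in the GFP- fraction was not tested.

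The subunits of the widespread receptor were also higher in GFP+ cells, by much smaller amounts. Chrna4 had 1389, 1834 and 2110 normalized reads in GFP+ cells, against 573, 757 and 765 in GFP- cells. Every GFP+ library was above every GFP- library, with a log2 fold change of 1.34 (SE 0.15, limma adjusted p = 4.29e-05). Chrnb2 had 2816, 3159 and 3406 normalized reads in GFP+ cells, against 1847, 1956 and 1952 in GFP- cells. Again the groups did not overlap, and the log2 fold change was 0.70 (SE 0.09, limma adjusted p = 6.83e-05). Chrnb2 shares 1365 exon bases, or 16.29% of its merged exons, with Adar, an RNA-editing enzyme gene on the opposite strand. Whether counting used strand was not given in the sources used here, and reads of that stretch cannot be assigned to either gene. Adar itself differed by 0.19 on the log2 scale (limma adjusted p = 0.128).

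**Figure D1:**
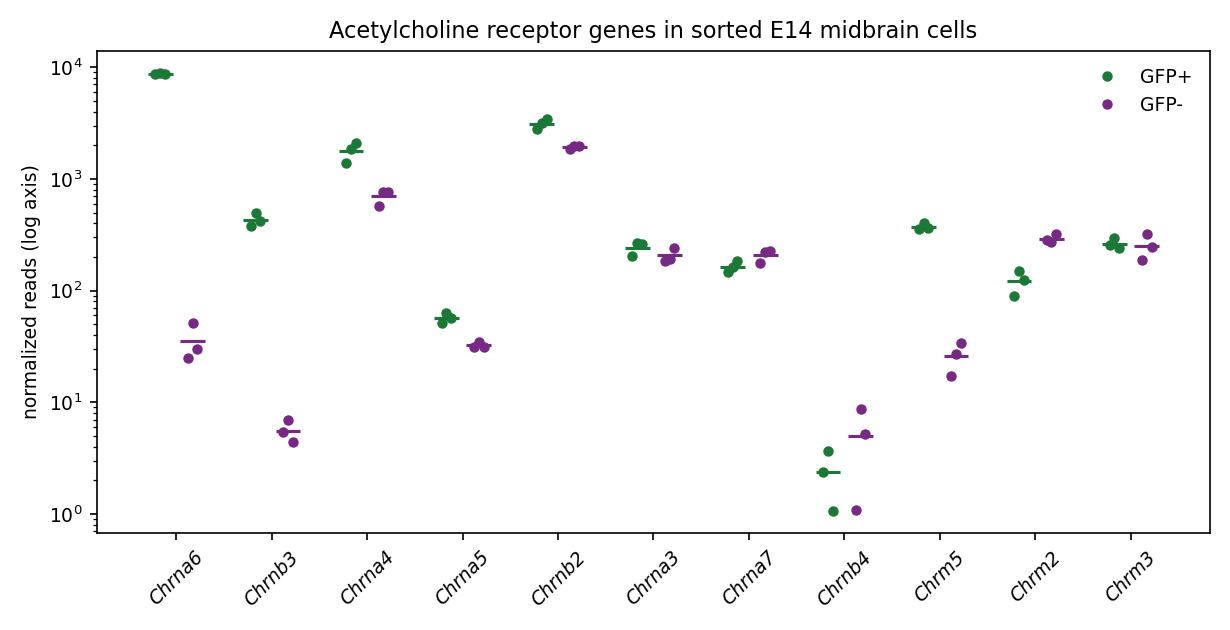
Normalized reads (log axis) of the 10 receptor genes and Chrm5 in the 3 GFP+ (green, left) and 3 GFP- (purple, right) libraries at E14. Points are libraries and bars are group means. Chrna6 and Chrnb3 lie far apart between the groups, whereas Chrna3, Chrna7 and Chrm3 overlap.

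The 3 subunit genes that lie side by side on mouse chromosome 9 did not all pass the test. Chrna5 codes for an accessory subunit that joins alpha4 and beta2, and Chrna3 and Chrnb4 code for the subunits of the receptor of autonomic ganglia, also abundant in the medial habenula. Chrna5 had 51.5, 62.9 and 57.4 normalized reads in GFP+ cells, against 31.2, 35 and 31.5 in GFP- cells. No GFP- library reached the lowest GFP+ library, and the log2 fold change was 0.79 (SE 0.22, limma adjusted p = 0.0176). That call was lost in 3 of the 6 fits that left out a library, with adjusted p between 0.0538 and 0.0638 by limma. Chrna3 had 202, 266 and 261 normalized reads in GFP+ cells, against 185, 193 and 243 in GFP- cells. These groups overlapped and the difference of 0.23 (SE 0.16) did not pass the test (limma adjusted p = 0.298). Chrnb4 stood at 2.39, 3.7 and 1.06 normalized reads in GFP+ cells, against 1.08, 8.75 and 5.25 in GFP- cells. It was too low to be tested here, and the authors' deposited table gives it a log2 fold change of -1.08 with an adjusted p of 0.56.

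Chrna7, whose product forms channels from alpha7 subunits alone and passes calcium well, had 146, 162 and 184 normalized reads in GFP+ cells, against 175, 222 and 224 in GFP- cells. The groups overlapped, and the log2 fold change of -0.33 (SE 0.15) did not pass (limma adjusted p = 0.122). Without GFP- library 1, the lowest of its group, it was -0.45 and passed (limma adjusted p = 0.045).

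The muscarinic genes split. Chrm2 codes for the M2 receptor, which acts through inhibitory G proteins, and had 89.7, 151 and 125 normalized reads in GFP+ cells, against 282, 271 and 318 in GFP- cells. Every GFP+ library was below every GFP- library, and the log2 fold change was -1.27 (SE 0.18, limma adjusted p = 0.000248). The same direction was seen in the summed markers of cholinergic motor neurons, at 80.8 to 112 normalized reads in GFP+ cells and 830 to 890 in GFP- cells. Of these 7 markers, 4 were called lower, with Isl1 at -4.64. Chat (-0.87), Prph (-0.69) and Slc18a3 (0.27) were not called. That direction also held for 7 of the 9 GABA neuron markers. The 9 summed to 2648 to 2913 in GFP+ cells and 5185 to 6218 in GFP- cells. Slc32a1 (1.16) and Gad2 (0.23), however, were higher in GFP+ cells. Markers of radial glia, at 7148 to 8723 in GFP+ cells and 74412 to 89164 in GFP- cells, and of glutamate, serotonin and habenula neurons were lower in GFP+ cells as well. No marker of these lists was at 0 in all libraries of a group, and the part of these cells in the Chrm2 difference was not tested. Chrm3, the gene of the M3 receptor, which acts through phospholipase C, had 256, 293 and 240 normalized reads in GFP+ cells, against 187, 318 and 246 in GFP- cells. These groups overlapped fully, with a log2 fold change of 0.10 (SE 0.18, limma adjusted p = 0.712) that turned to -0.09 without GFP- library 1.

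A gene outside the set had the largest difference among the muscarinic genes tested. Chrm5, the gene of the M5 receptor long associated with midbrain dopamine neurons, had 355, 401 and 365 normalized reads in GFP+ cells, against 17.2, 27.1 and 34.1 in GFP- cells. No libraries overlapped, and the log2 fold change was 3.84 (SE 0.23, limma adjusted p = 2.09e-07). Its GFP- mean was 7% of its GFP+ mean. Of the 11 other acetylcholine receptor genes listed, 6 were in the sorted table, and Chrm5 was the only one abundant enough to be tested.

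Of the 9 receptor genes of the set that were tested, 5 were higher in GFP+ cells (Chrna6, Chrnb3, Chrna4, Chrnb2 and Chrna5) and 1 was lower (Chrm2). Over all 18260 genes tested, 30.7% were called, 12.7% higher and 18% lower. The same 6 genes were those whose libraries did not overlap, a state that held for 44.1% of all genes. The median log2 fold change was 0.70 for the 9 genes and 0.02 for all genes.

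On GRCm38 in GENCODE M21, the receptor genes with the largest differences are neighbours. Chrnb3 (8:27368711-27399730, + strand) and Chrna6 (8:27403212-27413944, - strand) lie on chromosome 8, 3.48 kb apart with their 3' ends facing. Chrna5 (9:54980880-55007779, + strand), Chrna3 (9:55010111-55026562, - strand) and Chrnb4 (9:55028154-55048779, - strand) are separated by 2.33 kb and 1.59 kb. The measured genes that flank the chromosome 9 cluster, Psma4 and Ube2q2, differed by -0.21 and 0.30 on the log2 scale (limma adjusted p = 0.067 and 0.0139). Flanking the chromosome 8 pair, Eif4ebp1, 92.0 kb away, differed by 1.20 (limma adjusted p = 0.00565). On the other side Unc5d, 1232.8 kb away, differed by -0.21 (limma adjusted p = 0.0921). Both differences were far smaller than those of the 2 subunit genes between them. Just beyond Eif4ebp1, however, Adrb3, the beta3 adrenergic receptor gene, 118.1 kb from the pair, differed by 5.42 (limma adjusted p = 1.08e-05). The other members lie alone, Chrna4 on chromosome 2, Chrnb2 on chromosome 3, Chrna7 on chromosome 7, Chrm2 on chromosome 6 and Chrm3 on chromosome 13.

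The subunit genes are relatives, so the longest stretches that their coding sequences share are shown as a measure of how far reads could be confused. They are read from GENCODE M21 transcripts, and the whole run is shared in each case. The first is common to Chrna3 (from coding base 781) and Chrnb4 (from base 754), and the second to Chrna6 (from base 727) and Chrnb2 (from base 709).
Chrna3 and Chrnb4: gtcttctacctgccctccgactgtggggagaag
Chrna6 and Chrnb2: tacaccatcaacctcatcatcccctgc
These runs are 33 and 27 bases long, and the longest run shared by Chrna6 and Chrnb3 is 14 bases. Read length was not given in the sources used here.

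Of the 10 genes, 8 had a promoter in the RefSeq table of GRCm38.p6 (250 bases before to 50 after the start), and Chrna6 and Chrnb3 are named only. Each window was searched on both strands for letters bound by factors of dopamine neurons: the NBRE AAAGGTCA of Nr4a2, the bicoid-type TAATCC of Pitx3, the forkhead TGTTTAC of Foxa factors and the homeodomain TAATTA. No 2 of these motifs overlapped in a window with a match, since Chrm2 held the single match of the 8. Its 250 bases before the start (chr6:36387834-36388083, + strand) are shown because they hold that match, with TAATCC in capitals at 132 bases before the start.
Chrm2: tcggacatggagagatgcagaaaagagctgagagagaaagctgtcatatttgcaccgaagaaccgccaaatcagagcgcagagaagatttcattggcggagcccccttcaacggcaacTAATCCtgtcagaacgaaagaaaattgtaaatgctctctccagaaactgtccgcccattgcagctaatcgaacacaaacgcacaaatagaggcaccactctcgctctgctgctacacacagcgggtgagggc
Among all 32851 promoters of that table, 7.06% held TAATCC, 1.51% the NBRE, 3.65% the forkhead and 5.29% the homeodomain letters, so most promoters hold none of them. A match is a run of letters and not a measured site.

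Levels of different genes were compared per kilobase of merged exon. In GFP+ cells at E14, Chrna6 led with 3015 ± 52 normalized reads per kb (SD, n = 3). Chrnb2 at 373 ± 35.4 and Chrna4 at 354 ± 72.4 followed and overlapped each other, and Chrnb3 came next at 67.6 ± 9.99. Chrna3, Chrm3 and Chrna7 lay between 36.4 and 46.1, each overlapping its neighbour in the order. Chrm2 and Chrna5 lay at 20.2 and 18.3 and overlapped, and Chrnb4 was last at 0.641. In GFP- cells the order began with Chrnb2 at 229 ± 7.36 and Chrna4 at 139 ± 21.7 per kb, which did not overlap. Chrna6 ranked 7 of 10 there, at 12.1 ± 4.75, and Chrnb3 was last at 0.877 ± 0.208, overlapping Chrnb4.

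As shares of the summed level per length of the 8 nicotinic genes, Chrna6 made up 77.1% ± 2.54 in GFP+ cells and 2.5% ± 0.848 in GFP- cells. Chrnb2 made up 9.53% ± 0.664 in GFP+ cells and 48.1% ± 2.95 in GFP- cells, and Chrna4 9.02% ± 1.62 in GFP+ cells and 29% ± 2.03 in GFP- cells. Chrna7 took 0.929% in GFP+ cells and 9.6% in GFP- cells, and Chrna3 1.18% in GFP+ cells and 8.22% in GFP- cells. The nicotinic transcripts of GFP+ cells were thus mostly of 1 gene, those of GFP- cells mostly of 2. These are shares of RNA, and say nothing of the protein at the membrane.

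**Figure D2:**
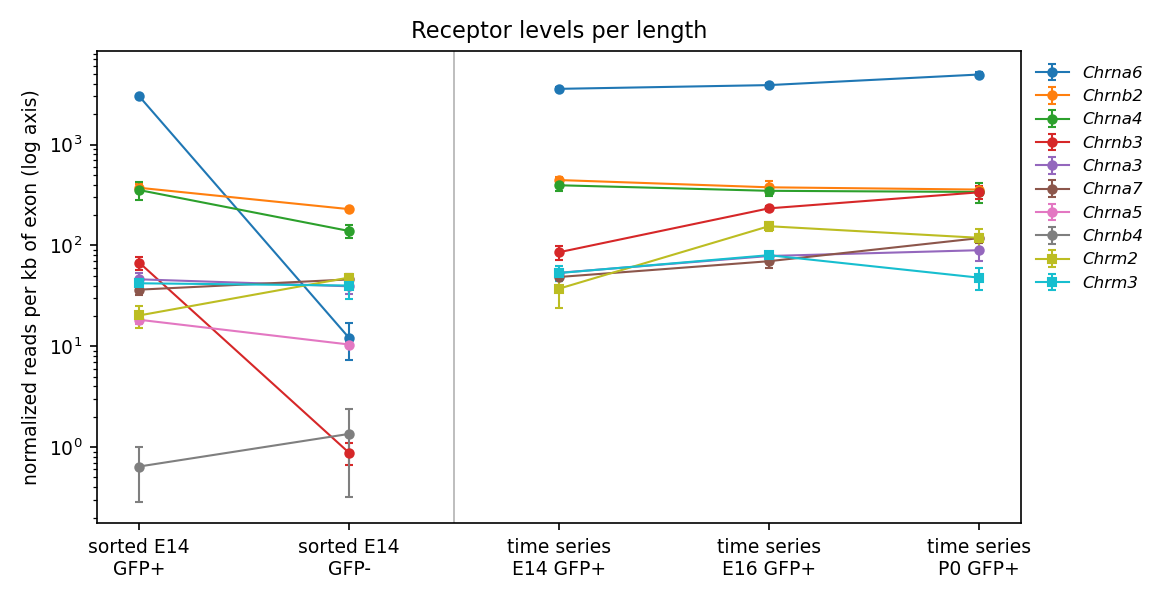
Normalized reads per kb of merged exon (log axis, mean and SD of 3 libraries) of the receptor genes by group, with the sorted E14 experiment left of the grey line and the time series, which was normalized apart, right of it. Lines join the groups of a gene. Chrna6 is highest in every GFP+ group and falls among the low genes in GFP- cells, and Chrnb3 reaches the level of Chrna4 at P0.

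Between E14 and P0, 5 of the 8 receptor genes in the time series gained RNA in GFP+ cells and 1 lost some. Over all genes, 25.1% were called higher and 30.6% lower between these ages. Among the 8 receptor genes, Chrnb3 and Chrm2 had the largest fold changes. The 3 ages were fitted together by limma, and the comparisons between ages share libraries, so they are not independent of each other.

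Chrnb3 went up at each step. It had 607, 582 and 444 normalized reads at E14, 1423, 1581 and 1454 at E16, and 1815, 2167 and 2444 at P0. No libraries of different ages overlapped. The log2 fold change was 1.46 for E16 over E14 (SE 0.13, limma adjusted p = 2.7e-06), 0.52 for P0 over E16 (SE 0.13, adjusted p = 0.0066) and 1.98 for P0 over E14 (adjusted p = 2.25e-08), all by limma. Per length it stood at 85.5 ± 13.8 at E14, 233 ± 13.2 at E16 and 336 ± 49.5 at P0, where it overlapped Chrna4 at 339 ± 76.1. Its share of the 6 nicotinic genes measured was 1.85% at E14, 4.67% at E16 and 5.42% at P0.

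Chrna6, already the leading gene at E14, gained by a smaller fold. It had 10385, 10721 and 10031 normalized reads at E14, 11390, 10807 and 11723 at E16, and 13965, 15296 and 13920 at P0. The P0 libraries stood above all others. The gain by E16 was 0.12 on the log2 scale (SE 0.07) and did not pass (limma adjusted p = 0.205), whereas P0 over E16 was 0.35 (SE 0.07, limma adjusted p = 0.00246) and P0 over E14 was 0.47 (limma adjusted p = 7.51e-05). The changes in the 2 intervals were not shown to differ (0.22, SE 0.12, limma adjusted p = 0.251). Its share of the level per length of the 6 nicotinic genes was 77.7% ± 0.338 at E14, 77.9% ± 2.24 at E16 and 80% ± 2.18 at P0, differences of the size of the spread between libraries.

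The subunits of the widespread receptor did not gain. Chrna4 had 2113, 2113 and 1723 normalized reads at E14, 1508, 1868 and 1870 at E16, and 1409, 1562 and 2134 at P0. The ages overlapped, and none of the 3 comparisons passed, with P0 over E14 at -0.24 (SE 0.14, limma adjusted p = 0.162). Without P0 library 3, its highest at that age, this fell by 0.41 and passed (limma adjusted p = 0.00991). Chrnb2 had 3476, 3838 and 3885 normalized reads at E14, 2730, 3628 and 3115 at E16, and 3029, 3052 and 2922 at P0. All P0 libraries were below all E14 libraries, at -0.31 on the log2 scale (SE 0.09, limma adjusted p = 0.0107). E16 over E14 was -0.25 and just missed the threshold (limma adjusted p = 0.0536), and P0 over E16 was -0.06 (limma adjusted p = 0.628). Adar, which shares exon bases with Chrnb2, differed by 0.11 for P0 over E14 (limma adjusted p = 0.219).

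**Figure D3:**
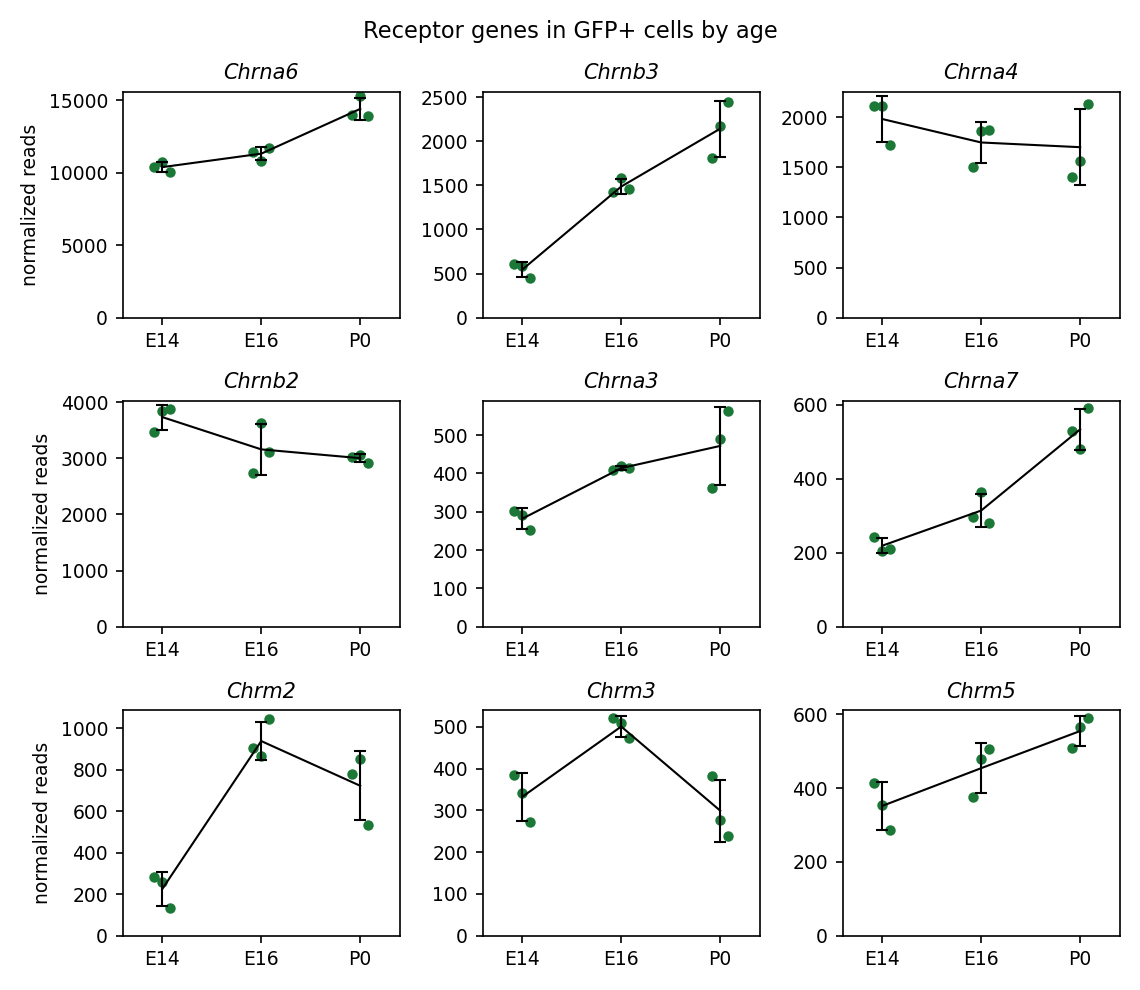
Normalized reads of 8 receptor genes and Chrm5 in GFP+ cells at E14, E16 and P0, with each axis starting at 0. Points are libraries, and lines and bars give the mean and SD of 3 libraries. Chrnb3 and Chrna7 rise at both steps, Chrm2 and Chrm3 have their highest mean at E16, and Chrnb2 is lower at P0 than at E14.

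Chrna7 gained at both steps. It had 241, 204 and 211 normalized reads at E14, 297, 363 and 281 at E16, and 529, 480 and 590 at P0. No ages overlapped. The log2 fold change was 0.51 for E16 over E14 (SE 0.13, adjusted p = 0.00784), 0.77 for P0 over E16 (SE 0.13, adjusted p = 0.000732) and 1.28 for P0 over E14 (adjusted p = 1.96e-06), all by limma. Chrna3 had 303, 291 and 251 normalized reads at E14, 408, 420 and 413 at E16, and 363, 489 and 563 at P0. Every later library was above every E14 library, and the P0 libraries spread on both sides of the E16 ones. The change was 0.56 for E16 over E14 (SE 0.14, limma adjusted p = 0.0087), 0.17 for P0 over E16 (limma adjusted p = 0.395) and 0.72 for P0 over E14 (limma adjusted p = 0.00072).

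Chrm2 and Chrm3 had their highest mean at E16, and for Chrm3 alone the later drop passed the test. Chrm2 had 284, 259 and 132 normalized reads at E14, 905, 868 and 1043 at E16, and 782, 852 and 535 at P0. E14 lay below both later ages without overlap. E16 over E14 was 2.13 on the log2 scale (SE 0.24, limma adjusted p = 1.83e-05), P0 over E16 was -0.40 (SE 0.24, limma adjusted p = 0.208) and P0 over E14 was 1.73 (limma adjusted p = 2.78e-05). Per length, Chrm2 had the lowest mean of the 8 genes at E14 (37.2 ± 13.4), overlapping Chrna7, and ranked next after Chrnb3 at E16 (155 ± 15.2). At P0 (119 ± 27.5) it overlapped Chrna7 (118 ± 12.3). A stretch of 142 bases of its exons overlaps the noncoding gene 9330158H04Rik on the opposite strand, so those reads are uncertain.

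Chrm3 had 385, 341 and 271 normalized reads at E14, 520, 509 and 473 at E16, and 382, 278 and 238 at P0. The E16 libraries stood above all others, and E14 and P0 overlapped. E16 over E14 was 0.60 (SE 0.17, limma adjusted p = 0.0123), P0 over E16 was -0.77 (SE 0.17, limma adjusted p = 0.00337) and P0 over E14 was -0.17 (limma adjusted p = 0.413). The first of these calls was lost without E14 library 3, at 0.46 (limma adjusted p = 0.0659). That library had the fewest reads of the 9. Its value was the lowest at E14 for Chrm2, Chrm3, Chrna3, Chrnb3, Chrna4, Chrna6 and Chrm5, but not for Chrna7 or Chrnb2. Chrm5 had 414, 355 and 286 normalized reads at E14, 377, 480 and 505 at E16, and 509, 565 and 590 at P0. P0 stood above all earlier libraries, and only P0 over E14 passed, at 0.67 (SE 0.14, limma adjusted p = 0.00134).

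For E16 over E14, 5 of the 8 genes were higher (Chrnb3, Chrm2, Chrm3, Chrna3 and Chrna7) and 0 lower by limma, while 33% of all 10781 genes were called, 15.2% higher and 17.8% lower. Libraries of the 2 ages did not overlap for 6 of the 8, the 5 named and Chrna6, and for 46.4% of all genes. The 3 genes without a call were Chrna6, Chrna4 and Chrnb2, and at an unadjusted p under 0.05 Chrnb2 was lower. For P0 over E16, 3 were higher (Chrna6, Chrnb3 and Chrna7) and Chrm3 was lower, against 33.4% of all genes called, 16.8% higher and 16.6% lower. Libraries did not overlap for those 4 and Chrm2, and for 44.8% of all genes. For P0 over E14, 5 were higher (Chrna6, Chrnb3, Chrna3, Chrna7 and Chrm2) and Chrnb2 was lower, against 55.7% of all genes called, 25.1% higher and 30.6% lower. The same 6 genes had libraries that did not overlap, as did 65.2% of all genes, so this count stands against a high background. The medians of the 8 genes were 0.54, 0.06 and 0.60 for E16 over E14, P0 over E16 and P0 over E14, those of all genes -0.04, -0.01 and -0.05.

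Whether a gene changed by the same amount in both intervals was tested by setting its change after E16 against its change before E16. These are total changes, not changes per day, and the intervals need not be equally long. Of the 8 genes, 3 had a lower change after E16 than before and 0 a higher one, where 13.6% of all genes were called, 8% higher and 5.62% lower. Chrm2 differed by -2.53 between the intervals (SE 0.41, limma adjusted p = 0.00204), Chrm3 by -1.37 (SE 0.29, limma adjusted p = 0.00788) and Chrnb3 by -0.94 (SE 0.22, limma adjusted p = 0.0125). Chrm3 turned from gain to loss, Chrnb3 went on gaining but by less in total, and the later change of Chrm2 did not pass the test. Chrna6, Chrna4, Chrnb2, Chrna3 and Chrna7 were not called, at 0.22, 0.13, 0.19, -0.39 and 0.25 on the log2 scale.

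**Figure D4:**
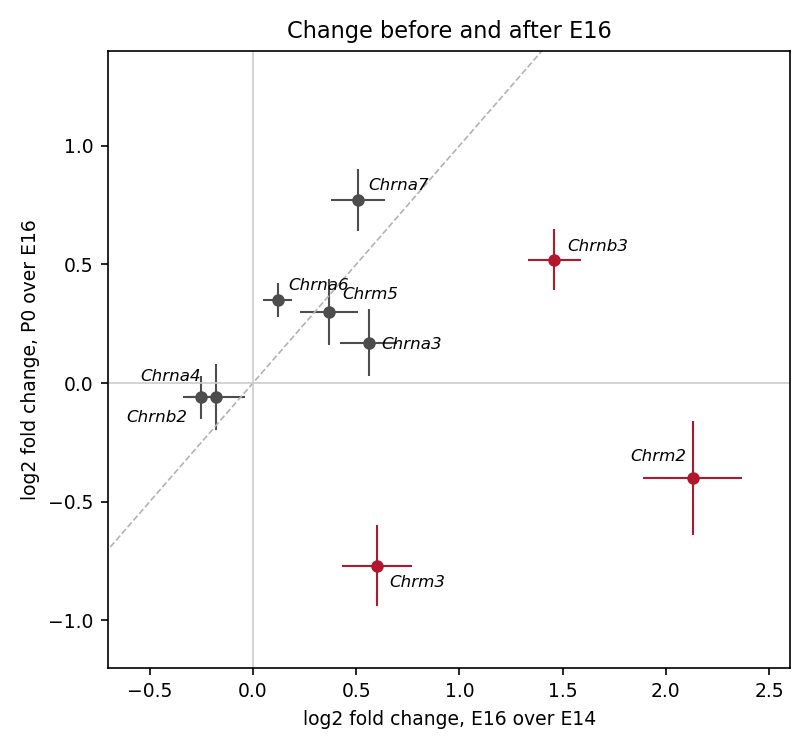
Log2 fold change of P0 over E16 (vertical axis) against E16 over E14 (horizontal axis) for 8 receptor genes and Chrm5, with bars of 1 SE. Both axes share the E16 libraries, and the dashed line marks equal change in both intervals. The genes in red (Chrm2, Chrm3 and Chrnb3) passed the test of a difference between the intervals and lie below the line.

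Markers of several cell types moved over the same ages. Of the 9 GABA neuron markers, 3 were in the time series table and their sum was 3526 to 4111 normalized reads at E14, 5108 to 5355 at E16 and 3181 to 5083 at P0. In the contrast of the intervals, Gad2 (-0.79, limma adjusted p = 0.0398) and Slc32a1 (-0.82, limma adjusted p = 0.0266), which make and store GABA, had the direction of Chrm2 and Chrm3. Gad1, the third GABA marker measured, was at -0.76 (limma adjusted p = 0.0765). In the sorted cells at E14, Gad2 (0.23) and Slc32a1 (1.16) were higher in GFP+ than in GFP- cells and Gad1 was lower (-3.73). Gad2 and Slc32a1 thus do not mark GFP- cells alone. Of the 2 glutamate neuron markers measured, Neurod6 was at -1.15 (limma adjusted p = 0.00514), although it was still higher at P0 than at E16, and Slc17a6 at 0.10 (limma adjusted p = 0.842). They summed to 5161 to 5404 at E14, 6019 to 7185 at E16 and 6375 to 9484 at P0. Of the 3 radial glia markers measured, Fabp7 was at 1.80 (limma adjusted p = 0.0245), Vim at -0.58 (limma adjusted p = 0.0116) and Nes at -0.14, and the dopamine neuron markers Aldh1a1 (-1.10), Slc18a2 (1.03) and Lmx1b (0.66) were called in both directions. Mbp, a myelin gene, was higher at P0 than at E14 by 0.69, and the astrocyte marker Slc1a2 was lower (-0.46). The part of these cells in the changes of the receptor genes was not tested. Markers of cholinergic motor neurons, serotonin neurons, microglia, blood vessels and erythroid cells were not analysed here over time. Among the 12 dopamine neuron markers, 4 were higher and 7 lower at P0 than at E14, where 25.1% of all genes were higher and 30.6% lower.

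Ratios of 2 subunit genes within a library were taken after adding 1 to each value. Apart from the added 1, they do not depend on the library's scaling, and gene length cancels in their difference between groups. The added 1 weighs on low values, such as those of Chrnb3 in GFP- cells. On the scale of log2(normalized reads + 1), Chrna6 to Chrna4 averaged 2.32 ± 0.31 in GFP+ cells and -4.33 ± 0.40 in GFP- cells, without overlap. Over time it averaged 2.39 ± 0.13 at E14, 2.70 ± 0.20 at E16 and 3.10 ± 0.34 at P0. P0 and E14 did not overlap, whereas E16 overlapped both. Chrnb3 to Chrnb2 averaged -2.86 ± 0.19 in GFP+ cells and -8.21 ± 0.29 in GFP- cells. Over time it averaged -2.79 ± 0.31 at E14, -1.08 ± 0.13 at E16 and -0.50 ± 0.24 at P0, with no overlap between any ages. The 8 comparisons were tested by exact two-sided permutation of 3 against 3 libraries, which cannot give a p below 0.1. The 6 comparisons without overlap reached that value (adjusted p = 0.133), so none passed.

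The genes most like a member were those with the smallest root mean square difference from it over 3 log2 fold changes (GFP+ over GFP-, E16 over E14 and P0 over E16), among 10662 genes measured in all 15 libraries. This describes these libraries and carries no test. Nearest to Chrna6 were Slc6a3 (0.55), Th (0.83), Pitx3 (0.85), Aldh1a1 (1.18) and Trpv1, the capsaicin receptor channel (1.26). Their courses over time differed. For E16 over E14 they stood, in that order, at 1.06, -0.09, -0.56, 2.07 and -0.06, and Chrna6 at 0.12. For P0 over E16 they stood at 0.44, 0.23, -0.53, 0.97 and 0.57, and Chrna6 at 0.35. Nearest to Chrnb3 were Adrb3, the beta3 adrenergic receptor (0.53), Trpv1 (0.88), Oprk1, the kappa opioid receptor (0.92), Th (0.96) and Slc6a3 (1.07). For E16 over E14 these stood, in that order, at 0.90, -0.06, 0.65, -0.09 and 1.06, and Chrnb3 at 1.46. Chrna4 had much closer neighbours, with Dpp6, a partner of A-type potassium channels (0.06), Ttc6 (0.07), Kcnn2, a calcium-activated potassium channel (0.08), Gm43300 (0.08) and Plxna4, a semaphorin receptor (0.08).

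A list of genes around nicotinic receptors held mostly those whose products help them fold or bind them from outside (chaperones and prototoxins). Of its 15 tested genes, 2 were higher and 5 lower in GFP+ cells at E14, where 12.7% of all genes were higher and 18% lower. Lynx1, a membrane-anchored brake on nicotinic receptors related to snake toxins, had 45.5, 47.2 and 40.4 normalized reads in GFP+ cells, against 128, 157 and 158 in GFP- cells. Its log2 fold change was -1.71 (SE 0.18, limma adjusted p = 2.19e-05), and its relatives Lypd6 (-1.39, limma adjusted p = 0.000431) and Lypd1 (-1.03, limma adjusted p = 2.52e-05) were lower too. The other lower genes were Canx (-0.28) and Nrg1, a growth factor gene outside these kinds (-0.62, limma adjusted p = 0.0448). The Nrg1 libraries of GFP+ and GFP- cells overlapped. Lypd1 shares 17.08% of its exon bases with Gpr39 on the opposite strand, and is uncertain to that degree. The higher genes were Ly6h (0.34, limma adjusted p = 0.0191) and Nrn1 (0.28, limma adjusted p = 0.0275). Ric3 and Tmem35a, chaperones of alpha7 receptors, differed by 0.09 and 0.08 (limma adjusted p = 0.476 and 0.615).

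Over time, 13 genes of that list were tested, against 33%, 33.4% and 55.7% of all genes called for E16 over E14, P0 over E16 and P0 over E14, so that these counts are near or below the background. At E16 over E14, 4 were higher and 0 lower, namely Lypd1 (0.94), Lypd6b (0.90), Ywhah, a 14-3-3 protein (0.64), and Ly6e (0.51). At P0 over E16, 2 were higher, Ric3 and Lypd1, and Nrg1 was lower (-0.49). Ric3 had 2289, 2302 and 2184 normalized reads at E14, 2121, 2141 and 2201 at E16, and 3118, 3299 and 3347 at P0. Its gain thus came after E16, at 0.59 for P0 over E16 (SE 0.07, limma adjusted p = 3.39e-05). In the contrast of the intervals it was the 1 gene of the list called higher (0.66, limma adjusted p = 0.0033). In that contrast 4 were lower (Lypd6b, Ly6e, Nrg1 and Lypd1), against 13.6% of all genes called, 8% higher and 5.62% lower. Lypd1 stood higher at P0 than at E14 by 1.24 (SE 0.08, limma adjusted p = 2e-08), in a comparison with 5 genes of the list higher and 2 lower.

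Of 7 tested genes that make, move or break down acetylcholine, 2 were higher and 3 lower in GFP+ cells at E14 (30.7% of all genes were called). Chat, which makes acetylcholine, had 5.98, 3.7 and 2.13 normalized reads in GFP+ cells, against 5.38, 7 and 11.4 in GFP- cells, which overlapped. Slc5a7, the choline transporter of cholinergic terminals, had 26.3, 41.6 and 31.9 in GFP+ cells, against 68.9, 85.8 and 113 in GFP- cells (-1.39, SE 0.26, limma adjusted p = 0.00153). The enzymes that break acetylcholine down were also lower, Bche by a log2 fold change of -3.08 (limma adjusted p = 2.98e-05) and Ache by one of -1.02 (limma adjusted p = 0.0143). The higher genes were Slc44a1, a choline transporter (0.30, limma adjusted p = 0.0213), and Prima1, which anchors acetylcholinesterase in the membrane and had 13.2, 21.3 and 35.1 normalized reads in GFP+ cells, against 2.15, 0.875 and 0 in GFP- cells (limma adjusted p = 0.000498).

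As a fold change, Ache gained more in GFP+ cells between E14 and P0 than any of the 8 receptor genes. It had 210, 206 and 171 normalized reads at E14, 531, 834 and 646 at E16, and 1398, 1382 and 1441 at P0. No ages overlapped. The change was 1.75 for E16 over E14 (SE 0.14, adjusted p = 1.65e-06), 1.09 for P0 over E16 (SE 0.14, adjusted p = 9.08e-05) and 2.85 for P0 over E14 (adjusted p = 2.78e-09), all by limma. The other gene of the list measured over time, Slc44a1, was higher for P0 over E16 by 0.27 (limma adjusted p = 0.0317).

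Of 18 genes of muscarinic signalling, 8 were higher and 4 lower in GFP+ cells at E14, where 30.7% of all genes were called. The 3 largest gains were in Prkca, a protein kinase C (1.91, limma adjusted p = 1.1e-07), Kcnj6, a potassium channel opened by inhibitory G proteins (1.35, limma adjusted p = 0.000349), and Plcb4, a phospholipase C (1.01, limma adjusted p = 1e-06). The largest losses were in Rgs4, which shortens G protein signals (-1.25, limma adjusted p = 1.57e-05), Kcnj9, a partner of Kcnj6 (-1.09, limma adjusted p = 0.000277), and Gnai2, an inhibitory G protein (-1.03, limma adjusted p = 8.78e-07). Over time 17 were tested, with 8 higher and 1 lower at E16 over E14, 5 higher and 0 lower at P0 over E16, and 10 higher and 1 lower at P0 over E14, against 33%, 33.4% and 55.7% of all genes called. Kcnj9 had 162, 141 and 138 normalized reads at E14, 228, 236 and 243 at E16, and 442, 430 and 390 at P0, and so rose at both steps (P0 over E14 1.51, SE 0.12, limma adjusted p = 1.98e-07). Rgs4 was higher at P0 than at E14 by 1.41 (limma adjusted p = 7.49e-07) and Itpr1, the calcium channel opened by the product of phospholipase C, by 1.26 (limma adjusted p = 3.32e-07), whereas Rgs8 was lower (-0.52, limma adjusted p = 0.000244). In the contrast of the intervals 1 gene of the list was higher, Itpr1 (0.76), and 2 were lower, Kcnj6 (-0.97) and Rgs4 (-0.78). Of all genes, 13.6% were called in that contrast, 8% higher and 5.62% lower.

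No circular RNA in the deposited tables was named after a receptor gene, among 3927 in the table of sorted cells, of which the GFP- libraries were at hand, and 7528 in the time series.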

How the data were processed

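The authors deposited normalized reads per gene and per circular RNA, treated here as a signal value with each library divided by 1 factor; the sorted and time series tables were normalized apart and tested apart. Tools and builds in the submitters' processing notes are TopHat2, Trim Galore and DESeq2 with mm10 and GRCm38. The sources used here give neither the read counter nor whether it used strand. The authors' deposited tables of comparisons hold, per the file headers, log2 fold changes, their standard errors (SE) and p-values. Dividing by the spacing of the values gave whole reads within 0.1 for 100% of values.

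Genes with a mean of at least 5 normalized reads were transformed to log2(normalized reads + 1) and tested, two-sided, with limma-trend (R 4.3.3, limma 3.58.1). P-values were adjusted by Benjamini-Hochberg over all genes tested, with a threshold of 0.05. Fold changes on that scale understate the change of low genes. The 9 time series libraries shared 1 fit. That table starts at a mean of 107.2 normalized reads, so low genes were not analysed here over time. Alternatives were other pseudocounts, filters and scalings, leaving out each library, a replicate block, and, for the sorted cells, edgeR 4.0.16 and DESeq2 1.42.0 on recovered reads. Levels per length used merged exons of GENCODE M21. The text names all 10 members and, from each related list, up to 3 genes per direction and comparison with the largest change past the threshold and a mean of at least 50. Other named genes, among them Th, Chat, Tmem35a, Prima1, Adar and flanking genes, were added after their values were seen. Members and lists were chosen with earlier results of these data known. Library numbers of the sorted cells are those of the table's columns. Intervals beyond the SE were not computed, and reads carry no molecular identifiers.

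The replicate numbers were checked as pairs. In the sorted cells, libraries with the same number deviated together with r of 0.367, 0.12 and 0.098, and those with unlike numbers with r between -0.297 and 0.229. In the time series, same-numbered libraries had r between -0.113 and 0.245. The libraries were not treated as pairs in the main fits. This check does not settle whether the sorted libraries were paired, so a replicate block is given as an alternative.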

Additional observations from a re-analysis of the deposited data

Results flagged for a closer look

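In the time series, 3 receptor genes changed differently before and after E16, by a test of the difference itself. Chrm2 differed by -2.53 on the log2 scale between the change after E16 and the change before it (range without each library in turn -2.73 to -2.18). Chrm3 differed by -1.37 (range -1.56 to -1.22), and Chrnb3 by -0.94 (range -1.04 to -0.8). All 3 remained past the limma threshold in each of these fits. The E16 libraries enter both intervals with opposite sign.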

How the results depend on the processing

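Of 557 recomputed values of single receptor genes, 541 kept direction and side of the threshold, 4 lost a call, 6 gained one and 6 changed sign. The sign changes were in genes that were not called: with 1 library left out, Chrm3 in the sorted cells ran from -0.09 to 0.29, Chrnb2 and Chrna4 for P0 over E16 from -0.16 to 0.04 and from -0.23 to 0.07, and in the contrast of the intervals Chrnb2 from -0.01 to 0.40 and Chrna4 from -0.08 (also -0.05) to 0.25. Lost calls were 3 of Chrna5 in the sorted cells and 1 of Chrm3 for E16 over E14. With a replicate block, 8466 genes were called in the sorted cells (5599 without), and edgeR and DESeq2 on recovered reads called 5541 and 5502. The block added a lower call of Chrna7 in the sorted cells (2 members lower) and of Chrnb2 for E16 over E14 (1 lower), and changed no other call of a member. Leaving out 1 library gave 1 to 2 members lower in the sorted cells, 0 to 1 for E16 over E14 and 1 to 2 for P0 over E14. In the contrast of the intervals it gave 625 to 1801 genes called (1468 with all), with 976 without E14 library 2, 625 without E16 library 3 and 887 without P0 library 2, and 3 members lower each time. That contrast could not be fitted from the libraries of 2 ages alone. A pseudocount of 10 gave 4.12 in place of 5.34 for the sorted difference in the ratio Chrnb3 to Chrnb2, by construction, since it weighs on the low GFP- counts. With the longest transcript in place of merged exons, the Chrna6 share was 73.2% in GFP+ cells of the sort and 73.6%, 73.4% and 75.5% at E14, E16 and P0. The filters removed no gene of the time series. Depth limits Chrnb4, with at most 8.75 normalized reads per library, and nothing is known here of Chrna5 and Chrnb4 after E14.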

Other observations

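Adrb3, the gene nearest to Chrnb3 in its changes, lies 118.1 kb from it on chromosome 8 (27225776 to 27250616). It had 80.2, 124 and 124 normalized reads in GFP+ cells, against 0, 3.5 and 2.62 in GFP- cells, a log2 fold change of 5.42 (SE 0.53, limma adjusted p = 1.08e-05). In the time series it was higher at E16 than at E14 by 0.90 (limma adjusted p = 0.00371) and at P0 than at E14 by 1.03 (limma adjusted p = 0.000695). A window of 300 kb around the Chrnb3 and Chrna6 pair, chosen after the Adrb3 value was seen, held 7 tested genes beside the pair in the sorted cells, Adrb3 included. Among the others, Gm45470, on the opposite strand within Adrb3, differed by 3.19 (limma adjusted p = 0.000443), and its reads cannot be told apart from those of Adrb3 where they overlap. Eif4ebp1 differed by 1.20, Adgra2 by 0.86 and Rab11fip1 by 0.84 (limma adjusted p = 0.00565, 0.0143 and 0.0365). Brf2 differed by 0.11 (limma adjusted p = 0.636). Got1l1, with a mean of only 12.2 normalized reads, differed by -1.89 (limma adjusted p = 0.0132). Apart from Got1l1, the called genes beside the pair were higher. Over all genes, 12.7% were called higher and 18% lower. Adrb3 prompted the window and Gm45470 lies within Adrb3, so the window cannot be tested against those shares. No cause of these differences was tested.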
